A study of Rattus norvegicus with 6 samples.

Results

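The miR-31a hairpin of the rat gives a pair of mature microRNAs (miRNAs, short RNAs that guide the silencing complex to messenger RNAs), miR-31a-5p and miR-31a-3p. They were read here in exosomes released by neonatal rat cardiac fibroblasts and in the fibroblasts themselves. The 2 members are the entries named rno-miR-31a-5p and rno-miR-31a-3p among 728 mature miRNAs listed. The hairpin was selected on the measured exosome and fibroblast counts of its arms, so their levels and fold changes between the groups are given as a description, with no test.

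Exosomes, small membrane vesicles, were purified by centrifugation, filtration and ultracentrifugation from culture medium. For the last 48 h the cells had been kept in it with 1% exosome-depleted serum. Both groups came from Wistar rats at postnatal day 1 to 2, and the heart cells had been freed by enzymes and grown with 10% serum. No gene was altered and no drug was given in either group. There were 3 exosome libraries (1, 2 and one whose column carries no number, called the unnumbered library) and 3 fibroblast libraries (1, 2 and 4). The labels do not say that the libraries came from separate cultures, so a p-value here speaks only of the scatter among these 6 libraries, and that scatter may be technical.

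A miRNA hairpin is cut into a duplex, and one strand is usually kept as the guide while the other is degraded. A guide finds its targets mainly through its seed, bases 2 to 8 from the 5′ end. miR-31 is known as a miRNA of fibroblasts, keratinocytes and tumour cells. In human breast cancer cells its 5p arm suppresses metastasis. It represses dystrophin in human muscle, and in rat cardiomyocytes miR-31a-5p has been described as promoting proliferation through repression of RhoBTB1.

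The RefSeq sequences (rat build GRCr8) are shown with the seed in capitals, because the seed is the main part that pairs with targets and it differs between the strands. The third sequence, miR-31b, is an entry of the count table that lies on the other strand of the same locus. It was added because its sequence overlaps both members.
miR-31a-5p: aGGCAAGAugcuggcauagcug
miR-31a-3p: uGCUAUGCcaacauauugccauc
miR-31b: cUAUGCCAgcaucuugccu

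Each of these 3 seeds was found in 1 mature rat miRNA of the RefSeq table, its own. The hairpin lies at chr5:108714849-108714954 on the minus strand of GRCr8. In its sequence the arms stand in capitals, 5p first.
miR-31a hairpin: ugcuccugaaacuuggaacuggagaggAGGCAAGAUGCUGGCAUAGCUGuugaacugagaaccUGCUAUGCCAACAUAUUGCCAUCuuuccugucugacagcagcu

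The annotation places an uncharacterised long non-coding RNA, LOC130062807, and the miR-31b hairpin gene, Mir3554, across the same bases. The nearest protein-coding genes are Ifne, an epithelial interferon gene, on one side and C5h9orf85 on the other. All 19 bases of miR-31b are the reverse complement of bases 1 to 19 of miR-31a-5p. miR-31b also resembles miR-31a-3p, since the arms of a hairpin pair with each other. Of 19 aligned positions, 16 were identical, and the 3 mismatches are shown in capitals.
miR-31a-3p: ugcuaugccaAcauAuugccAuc
miR-31b: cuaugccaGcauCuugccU

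Whether the authors counted reads by strand, and how many mismatches they allowed, is not given in the sources used here. Reads of miR-31a-5p, its antisense partner miR-31b and the similar miR-31a-3p may therefore be partly exchanged between these entries. Their values are uncertain to that extent.

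The libraries differed greatly in depth. Exosome libraries held 113129 to 120224 miRNA counts and fibroblast libraries 2439559 to 12508651. A single miRNA, miR-873-3p, took 84.9% to 90.1% of the exosome counts and 0.391% to 2.37% of the fibroblast counts, so that 11825 to 18164 counts were left for all other exosome miRNAs. A count of 0 allows up to 25.0 to 26.5 CPM (counts scaled to 1000000 in each library) in an exosome library and 0.240 to 1.23 CPM in a fibroblast library (3 counts of the total). Counts were summed over 32 entries listed as fibroblast and mesenchymal miRNAs. These held 0.710% to 1.72% of exosome counts and 57.8% to 58.6% of fibroblast counts. The lists were chosen with earlier results of these data known, so the shares are no independent check of the fibroblast label. Lists of other cell types were small in both groups. Muscle miRNAs held 0.0235% to 0.108% of exosome and 0.0276% to 0.0853% of fibroblast counts, blood miRNAs 0.0294% to 0.0681% and 0.0282% to 0.0814%. Epithelial miRNAs held 0.0765% to 0.185% of exosome and 0.0843% to 0.231% of fibroblast counts, and neural miRNAs 0.180% to 0.220% and 0.0617% to 0.178%. The 3 endothelial entries held 0.0840% to 0.0973% of exosome and 0.0106% to 0.0161% of fibroblast counts. Intervals and limits take in counting error alone, because PCR copies of a molecule were not told apart.

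miR-31a-5p, the guide arm, was scarce in the exosomes and one of the main miRNAs of the fibroblasts. It had 5, 7 and 21 reads in exosome libraries 1, 2 and unnumbered, against 43121, 77721 and 19090 reads in fibroblast libraries 1, 2 and 4. As a level this was 41.6 CPM (95% Clopper-Pearson interval 13.5 to 97.1), 61.9 CPM (24.9 to 127.5) and 176.5 CPM (109.2 to 269.8) in exosomes, against 6761, 6213 and 7825 CPM in fibroblasts. The highest exosome library lay far below the lowest fibroblast library, and within exosomes the unnumbered library was high. The mean level was 93.3 ± 72.7 CPM in exosomes and 6933 ± 820 CPM in fibroblasts (SD, n = 3 each).

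Among the 728 entries miR-31a-5p ranked 455th, 327th and 76th in the exosome libraries, against 22nd, 23rd and 19th in the fibroblast libraries. Its rank by mean fibroblast level was 20. The spread between fibroblast libraries depended on the scale, with a coefficient of variation of 11.8% in CPM of total counts. It was 50.9% in CPM with TMM-scaled library sizes (3124 to 9878) and 53.6% in the deposited normalized counts (2317 to 8161). On these last scales the highest exosome library held 408 CPM and 344 normalized counts. In CPM of total counts miR-31a-5p had every exosome library below every fibroblast library, as had 24.1% of tested miRNAs. That share is not given here for the other scales. As a share of all miRNA counts miR-31a-5p made up 0.00416%, 0.00619% and 0.0176% of the exosome libraries, against 0.621% to 0.783% of the fibroblast libraries.

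miR-31a-3p, the opposite arm, was rare in every library. It had 3, 2 and 0 reads in exosome libraries 1, 2 and unnumbered, against 266, 1013 and 18 reads in fibroblast libraries 1, 2 and 4. Its level was 25.0, 17.7 and 0 CPM in exosomes, where the count of 0 allows up to 25.2 CPM, and 41.7, 81.0 and 7.38 CPM in fibroblasts. The groups overlapped, because fibroblast library 4 lay below exosome libraries 1 and 2. The means were 14.2 ± 12.8 CPM in exosomes and 43.4 ± 36.8 CPM in fibroblasts (SD, n = 3 each). By mean fibroblast level the arm ranked 494.

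**Figure D1:**
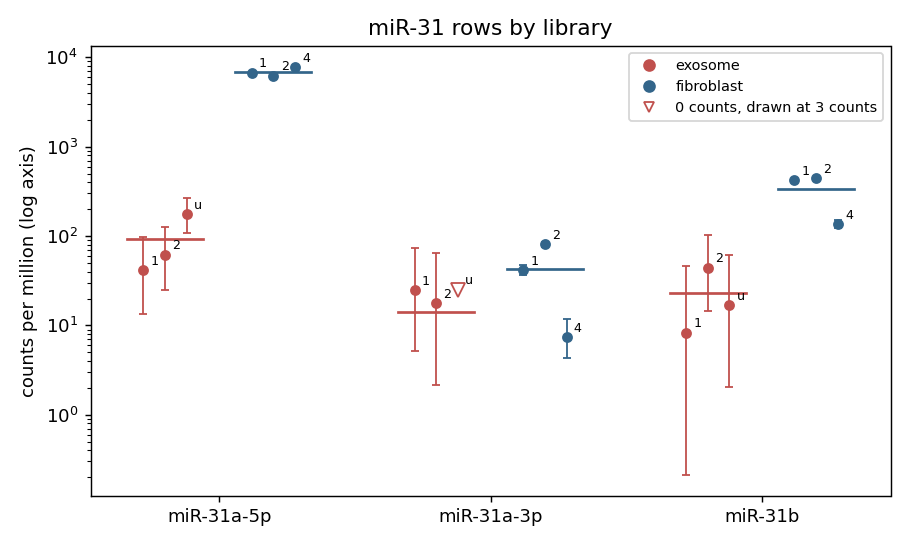
Level of miR-31a-5p, miR-31a-3p and the antisense entry miR-31b in each library, in CPM on a log axis, exosomes left of fibroblasts. Points are libraries labelled by number (u, unnumbered) with 95% Clopper-Pearson intervals, horizontal lines are group means, and the open triangle marks a library with 0 counts, drawn at the level of 3 counts. miR-31a-5p lies between 41.6 and 176.5 CPM in exosomes and between 6213 and 7825 CPM in fibroblasts, while the groups overlap for miR-31a-3p.

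miR-31b, the antisense entry, was more abundant than miR-31a-3p in fibroblasts. It had 1, 5 and 2 reads in exosomes, against 2690, 5545 and 332 reads in fibroblasts. Its level was 23.1 ± 18.8 CPM in exosomes and 333.7 ± 171.5 CPM in fibroblasts (SD, n = 3 each). The groups did not overlap, with exosomes lower, as for 24.1% of tested miRNAs. Of the reads of miR-31b and miR-31a-5p together, miR-31b made up 16.7%, 41.7% and 8.70% in exosomes, against 5.87%, 6.66% and 1.71% in fibroblasts (libraries in the order above). The exosome percentages rest on 8 reads of miR-31b in all, and summed over the exosome libraries the interval ran from 8.82% to 34.9%.

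Within the fibroblasts, library 4 stood apart for the scarce entries of the locus and not for the guide arm when levels were taken as CPM of total counts. Relative to fibroblast library 1, library 4 was higher for miR-31a-5p by 0.21 on the log2(CPM + 1) scale. On the same scale it differed by -2.35 for miR-31a-3p and by -1.62 for miR-31b. The median difference was -0.36 over all 728 entries and -0.26 over 190 minor arms of hairpins. Among those minor arms miR-31a-3p had the sixth lowest difference. Library 4 was the shallowest fibroblast library, and its 18 reads of miR-31a-3p give an interval of 4.37 to 11.7 CPM.

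The hairpin was among those most one-sided in the cells. In exosome libraries 1, 2 and unnumbered the share of miR-31a-5p in the reads of both arms was 62.5% (5 of 8 reads, 95% Clopper-Pearson interval 24.5 to 91.5), 77.8% (7 of 9 reads, 39.99 to 97.2) and 100% (21 of 21 reads, 83.9 to 100). In fibroblast libraries 1, 2 and 4 it was 99.39%, 98.71% and 99.91%. The shares averaged 80.1% ± 18.9 over exosome libraries and 99.3% ± 0.598 over fibroblast libraries (SD, n = 3 each), and the unnumbered exosome library lay above every fibroblast library while exosome libraries 1 and 2 lay below. Over the summed reads, 33 of 38 exosome reads were miR-31a-5p, 86.8% (71.9 to 95.6), against 139932 of 141229 fibroblast reads, 99.08% (99.03 to 99.13). Without the unnumbered library the exosome mean was 70.1%. With the reads of miR-31b added to those of miR-31a-3p, an alternative chosen after seeing the data, the share averaged 65.6% in exosomes and 94.7% in fibroblasts.

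Of 190 hairpins with at least 100 reads of both arms together in every fibroblast library, miR-31a had the fifth highest fibroblast 5p share. The hairpins next to it in that order were miR-10a, miR-191a and miR-16 above and let-7i, miR-100 and miR-34c below. Each of these had a lower mean 5p share in exosomes than in fibroblasts. For let-7i, a hairpin of the let-7 family of differentiated cells, the shares were 79.9% ± 17.2 in exosomes and 99.3% ± 0.401 in fibroblasts (SD, n = 3 each). For miR-34c, a p53 target, they were 96.8% ± 5.50 in exosomes and 99.3% ± 0.544 in fibroblasts. The library pattern of miR-31a, lowest in exosome library 1 and highest in the unnumbered library, was also that of miR-10a, miR-191a, let-7i and miR-100.

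Across hairpins with at least 10 exosome reads, the arm that dominated in fibroblasts held a smaller share of summed exosome reads for 133 of 188. The median difference, exosome minus fibroblast, was -10.3 percentage points, and for miR-31a it was -12.5. Among the 14 hairpins whose major arm held 99% or more in fibroblasts the median exosome share was 93.0%. Of these, 10 lay above miR-31a. The major arm was defined by the fibroblast reads, which itself favours a lower share in exosomes, so these counts are a description.

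**Figure D2:**
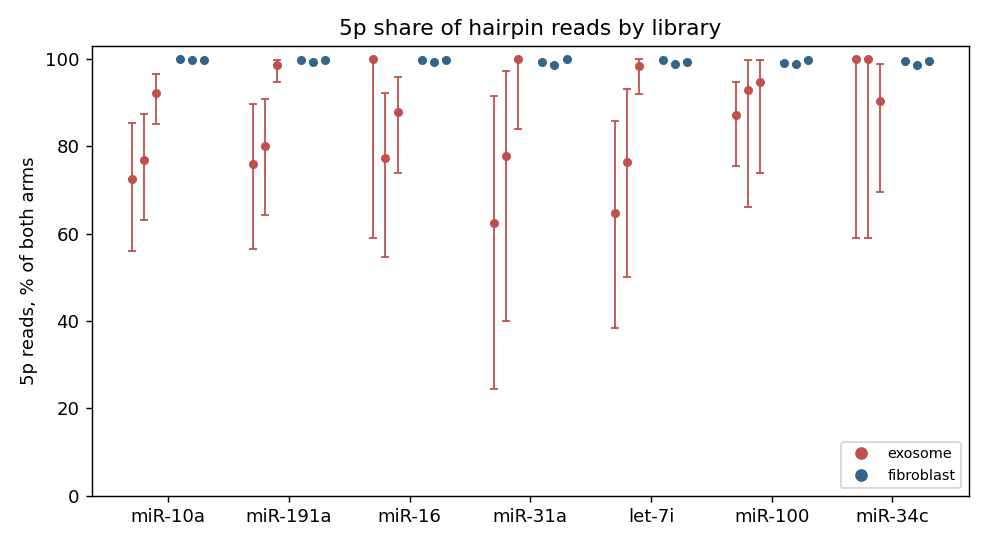
Share of miR-31a reads from the 5p arm in each library, in percent of both arms, beside the 3 hairpins next above and the 3 next below in fibroblast 5p share. Points are libraries with 95% Clopper-Pearson intervals, exosomes (libraries 1, 2 and unnumbered from left to right) left of fibroblasts (1, 2 and 4). Exosome points of miR-31a at 62.5%, 77.8% and 100% have wide intervals, and its fibroblast points sit between 98.71% and 99.91%.

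The next comparison set each arm's exosome level against its level in the parent cells relative to all other miRNAs. With TMM scaling (edgeR's trimmed mean of M values, which sets libraries level by the bulk of their miRNAs), miR-31a-5p had a log2 fold change, exosome over fibroblast, of -5.45 (SE 1.27), a level 43.6-fold lower in exosomes. This was the sixth lowest of 698 miRNAs past the count filter. The rank was 37 of 720, 29 of 724 and 27 of 725 without exosome library 1, 2 or the unnumbered one, and 20 of 728 with no filter. The authors' deposited table gives a log2 value of 5.31 in the opposite direction, fibroblast over exosome, a fold of 39.8. Every exosome CPM lay below every fibroblast CPM for miR-31a-5p, and the same held for 24.1% of tested miRNAs. By edgeR's adjusted p, 29.9% of them differed between the groups in either direction.

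For miR-31a-3p the log2 fold change was -1.16 (SE 0.92), rank 197 of 698, where the median of all tested miRNAs was -0.15. The authors' deposited table gives 1.37 for fibroblast over exosome. Summed over libraries and set against total counts, the ratio of exosome to fibroblast level was 0.233 with a counting interval of 0.0756 to 0.546 for miR-31a-3p, and 0.0143 (0.00982 to 0.0200) for miR-31a-5p. These intervals leave out differences between libraries. Fibroblast library 2 held 1013 of the 1297 fibroblast reads of miR-31a-3p, and the groups overlapped for this arm. By mean CPM of total counts miR-31a-3p was 3.05-fold lower in exosomes. miR-31b had a log2 fold change of -3.46 (SE 0.78).

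The depth of the exosome libraries set how far each arm could be followed. At its mean fibroblast share of all counts other than miR-873-3p, miR-31a-5p would have given 127.8, 100.8 and 83.2 reads in exosome libraries 1, 2 and unnumbered, where 5, 7 and 21 were found. miR-31a-3p would have given 0.794, 0.627 and 0.517 reads, where 3, 2 and 0 were found. A decrease of the 3p arm could thus not be detected against these other miRNAs at this depth.

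The size of the fold change depended on the scaling. With total counts miR-31a-5p was 74.2-fold lower in exosomes (log2 -6.21), and with library sizes that leave out miR-873-3p 8.53-fold (log2 -3.09). With library sizes taken from the deposited signal named rest, called unassigned reads here, it was 123.9-fold lower (log2 -6.95). That signal names no miRNA, and whether it holds reads of listed miRNAs is not given in the sources used here. These scalings moved the median of all tested miRNAs to -0.57, 2.37 and -1.14, against -0.15 with TMM. Relative to that median miR-31a-5p lay at -5.30 with TMM and at -5.64, -5.46 and -5.81 with the others, with rank 5 or 6 from the lowest in each of these 4 scalings. miR-31a-3p turned to a log2 fold change of 1.29 (SE 1.36) where miR-873-3p was left out of the library size. Relative to the median it lay at -1.01 with TMM and at -1.04, -1.08 and -1.06 with the others.

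One library weighed heavily on the 5p value. The unnumbered exosome library held 21 of the 33 exosome reads of miR-31a-5p, 63.6%, but 26.7% of the exosome counts other than miR-873-3p. Leaving it out made the log2 fold change -7.41 (SE 1.37), a 170.4-fold lower level. Leaving out exosome library 1 or fibroblast library 2 gave -4.95 and -5.91.

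**Figure D3:**
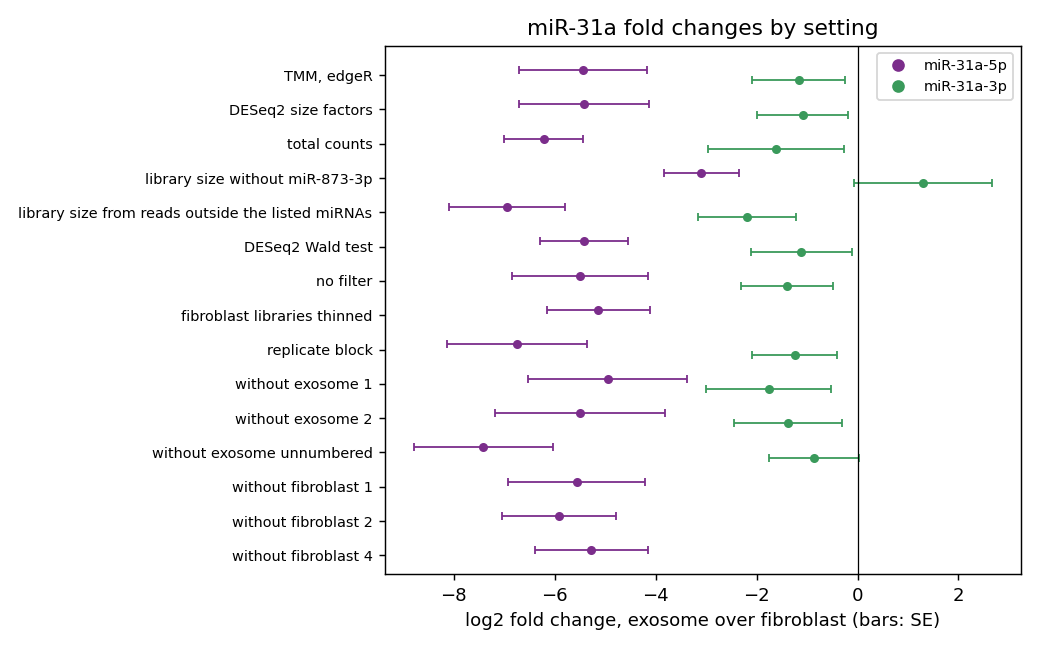
Fold change of both miR-31a arms under each setting, as log2 of exosome over fibroblast with bars of 1 standard error. The value of miR-31a-5p stays below 0 in every setting, from -7.41 without the unnumbered exosome library to -3.09 with miR-873-3p left out of the library size, where miR-31a-3p turns to 1.29. miR-31a-3p has no value where it failed the count filter.

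The unnumbered library was high for other fibroblast miRNAs too. Reads of miR-143-3p, the most abundant fibroblast miRNA and a miRNA of smooth muscle and mesenchyme, numbered 15, 72 and 646 in exosome libraries 1, 2 and unnumbered. Those of miR-21-5p, widely studied in cardiac fibrosis, numbered 76, 59 and 285. For each 1000 reads of miR-21-5p there were 65.8, 118.6 and 73.7 reads of miR-31a-5p in these exosome libraries, against 82.8, 63.0 and 92.0 in fibroblast libraries 1, 2 and 4. All 3 exosome intervals (20.8 to 160.4, 45.7 to 260.1 and 44.9 to 114.8) held at least 1 of the fibroblast values. They rest on 5, 7 and 21 reads of miR-31a-5p and take in counting error alone. Such wide intervals cannot show whether the ratio to miR-21-5p differed, and no test of it was made.

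Against miR-143-3p the libraries differed more. There were 333.3, 97.2 and 32.5 reads of miR-31a-5p per 1000 of miR-143-3p in exosome libraries 1, 2 and unnumbered, and 29.4, 25.3 and 28.4 in the fibroblast libraries. The unnumbered library lay near the cells, with an interval of 20.0 to 50.1. Exosome library 1 (94.8 to 964.8) and library 2 (37.7 to 210.8) lay above every fibroblast value. Exosome library 1 held 15 reads of miR-143-3p, against 76 each of miR-21-5p and miR-22-3p, a further abundant fibroblast miRNA. Per 1000 reads of miR-22-3p there were 65.8, 64.8 and 35.4 of miR-31a-5p in exosomes, against 38.4, 39.7 and 53.8 in fibroblasts. Those exosome intervals (20.8 to 160.4, 25.5 to 138.2 and 21.7 to 54.5) held every fibroblast value. The excess over the cells was thus seen against miR-143-3p only. The part of the unnumbered library's higher level of these fibroblast miRNAs in the fold change of miR-31a-5p was not tested beyond leaving that library out.

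The 6 miRNAs nearest to miR-31a-5p in profile were found by the distance of log2(CPM + 1) over the 6 libraries. They were miR-16-5p (distance 1.82), a cell-cycle regulator, miR-125a-5p (1.88), miR-34c-5p (1.91), miR-28-3p (2.43), miR-181b-5p (2.52) and miR-30e-5p (2.83), a miRNA abundant in heart. Their Pearson r with miR-31a-5p ran from 0.979 to 0.998, mainly across the gap between the groups that all of them share. All 7 seeds differed. The nearest, miR-16-5p, had 7, 17 and 36 exosome reads against 51948, 79409 and 10173 fibroblast reads. Like miR-31a-5p it was highest in the unnumbered library among exosomes, but fibroblast library 4 was its lowest and the highest of miR-31a-5p. miR-34c-5p had nearly the same exosome reads as miR-31a-5p, 7, 7 and 19, at a fibroblast level of 4008 ± 1498 CPM (SD, n = 3).

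miRNAs of like abundance in the cells were compared next. The 3 next above miR-31a-5p in mean fibroblast level were miR-10a-5p, miR-125b-5p and miR-99b-5p, and the 3 next below were miR-181b-5p, miR-151-3p and miR-16-5p. Their log2 fold changes ran from -4.58 (SE 1.32) for miR-125b-5p to -3.73 (SE 1.25) for miR-10a-5p, against -5.45 (SE 1.27) for miR-31a-5p. No test of these differences was made. Their mean exosome levels were 170.3 to 461.6 CPM, against 93.3 CPM for miR-31a-5p. Of the 40 most abundant fibroblast miRNAs, 39 had a negative log2 fold change, with a median of -4.37, and miR-31a-5p had the third lowest. Since these 40 were picked for a high fibroblast level, the choice itself favours negative values.

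**Figure D4:**
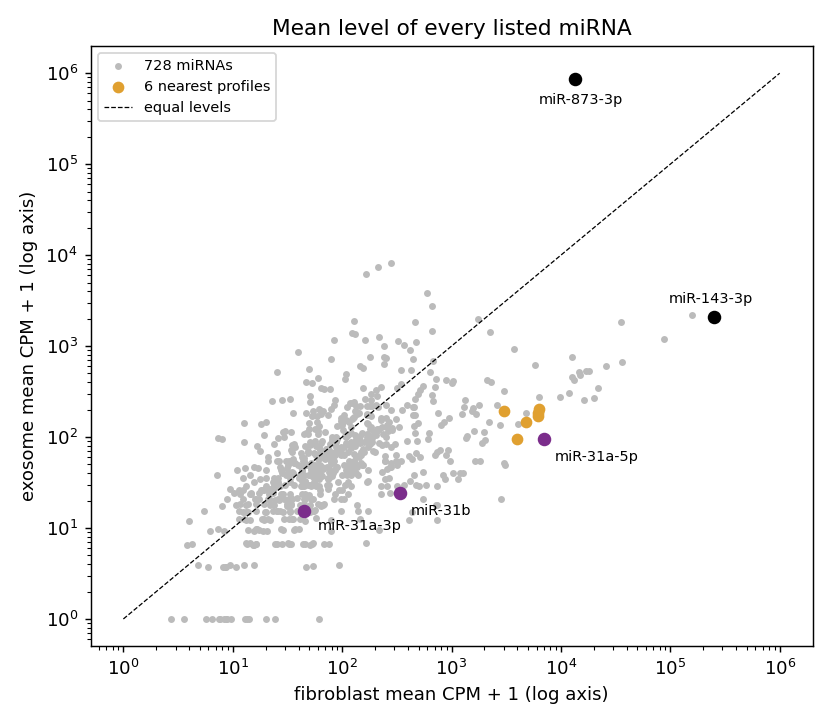
Mean exosome level against mean fibroblast level of all 728 miRNAs, as CPM + 1 on log axes, with the line of equal levels. miR-31a-5p sits at 93.3 CPM in exosomes and 6933 CPM in fibroblasts, at the lower edge of the miRNAs of its fibroblast level. The 6 nearest profiles lie at lower fibroblast levels, 3045 to 6353 CPM, and at 93.3 to 204.2 CPM in exosomes. miR-31a-3p lies below the line among the scarce miRNAs, at 14.2 CPM in exosomes and 43.4 CPM in fibroblasts.

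Other miRNAs of the settings in which miR-31 is known were counted in 3 lists. As background, 18.6% of the tested miRNAs passed as lower in exosomes and 11.3% as higher (130 and 79 of 698, edgeR's quasi-likelihood test, Benjamini-Hochberg adjusted). Of 32 fibroblast and mesenchymal entries, 21 were lower, 2 were higher (miR-10a-3p and miR-24-1-5p) and 9 did not pass, with a median log2 fold change of -3.68 against -0.15 for all tested miRNAs. This list was chosen with earlier results of these data known. Of the 40 most abundant tested fibroblast miRNAs, whatever their list, 36 were called lower. The count of lower list entries was not told apart from a high fibroblast level. The most abundant list entries called lower were miR-143-3p (log2 -5.75, SE 2.25), miR-22-3p (log2 -5.12, SE 2.03), miR-21-5p (log2 -5.23, SE 1.86) and miR-199a-3p (log2 -5.17, SE 1.48). All 4 calls were lost without exosome library 1, with edgeR adjusted p of 0.18, 0.19, 0.13 and 0.054, and the first 3 also without exosome library 2 (0.13, 0.14 and 0.096). With no filter miR-143-3p and miR-22-3p did not pass either (0.066 and 0.067). The list then had 12 lower entries without exosome library 1 and 14 without exosome library 2. With miR-873-3p left out of the library size 11 were lower.

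Of 11 tested muscle miRNAs, listed because miR-31 acts on dystrophin, 1 was lower and 2 were higher in exosomes, with a median log2 fold change of 0.51. miR-499-5p, encoded in a myosin gene, had 0, 0 and 1 exosome reads against 408, 933 and 48 fibroblast reads (log2 -3.78, SE 1.25). miR-133b-5p was higher (log2 2.44, SE 0.63), with 68, 47 and 3 exosome reads. In CPM of total counts its groups overlapped. The unnumbered exosome library, at 25.2 CPM, lay below every fibroblast library (45.5 to 105.4 CPM). miR-208b-5p was higher (log2 2.55, SE 0.87) on 9, 3 and 3 exosome reads. The call of miR-499-5p was lost without exosome library 1 or 2 (edgeR adjusted p = 0.11 and 0.065), with total counts (0.062) and with miR-873-3p left out of the library size (0.59). That of miR-208b-5p was lost without exosome library 1 (0.21), with total counts (0.31) and with library sizes from unassigned reads (0.20).

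Of 18 tested entries associated with metastasis in tumour studies, the field in which miR-31 is best known, 4 were lower and 3 were higher, with a median log2 fold change of 0.17. Those lower were miR-21-5p, miR-10b-5p (log2 -5.04, SE 1.07), miR-146b-5p (log2 -4.27, SE 0.87) and miR-146a-5p (log2 -5.11, SE 0.89). miR-146a-5p and miR-146b-5p dampen inflammatory signalling. The 3 higher were miR-126a-3p (log2 4.85), known from endothelium, and the minor arms miR-200a-5p (log2 2.38, SE 0.62) and miR-200b-5p (log2 1.60, SE 0.60) of an epithelial family. In CPM of total counts the groups overlapped for both of these minor arms. Exosome libraries 1 and 2 lay above every fibroblast library. The unnumbered exosome library, with 4 reads of miR-200a-5p and 5 of miR-200b-5p, lay within the fibroblast range for each. The call of miR-21-5p has the exceptions above, and that of miR-200b-5p was lost without exosome library 1, exosome library 2 or fibroblast library 1 (edgeR adjusted p = 0.30, 0.18 and 0.088). It was also lost with total counts (0.37), unassigned reads (0.43) and no filter (0.074), and that of miR-146a-5p with miR-873-3p left out of the library size (0.058). miR-126a-3p had 113, 91 and 98 raw exosome reads, of which the deposited normalized table held 11, 3 and 5. For miR-31a-5p and miR-31a-3p that table held between 99.90% and 100% of the raw reads in each library with reads.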

How the data were processed

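Small RNA libraries of 3 exosome and 3 fibroblast samples were compared. Raw counts of each mature miRNA, deposited by the authors, were the input of every fit. The authors also deposited a normalized signal, which did not hold all raw reads of every miRNA. In exosome library 1 it held 9.73% of the raw reads of miR-126a-3p. The scale of each library was taken as its largest ratio of normalized to raw counts. The authors' deposited comparison table gives, per the file headers, a fold (ratio) between group means, the log2 of it, and p-values, which were not used. The submitters' processing notes name CASAVA 1.8.2, cutadapt 1.2.1, DESeq and the build rn5. How reads were aligned and counted, and on which strand, is not given in the sources used here. The row named rest names no miRNA and held 77.2% to 84.4% of the normalized signal in exosomes and 63.1% to 82.4% in fibroblasts; it stayed out of library sizes except where stated.

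Counts of all 728 miRNAs were fitted with edgeR 4.0.16 (R 4.3.3): TMM, filterByExpr (minimum count 10, minimum total 15), quasi-likelihood test on group, two-sided, Benjamini-Hochberg adjustment, threshold 0.05. Both members passed the filter. Standard errors were derived from the log2 fold change and its F statistic (|log2| / √F). TMM factors were 1.34, 1.13 and 0.433 for exosome libraries 1, 2 and unnumbered and 0.968, 1.99 and 0.792 for fibroblast libraries 1, 2 and 4. On simulated counts of 698 miRNAs, 200 were given 8-fold changes, of which 181 were recovered with 7 false calls. Recovery of smaller changes was not tested. How far these figures hold for the real libraries, whose calls changed with the scaling, was not tested either. Intervals are exact 95% Clopper-Pearson. Alternatives were other scalings, DESeq2 1.42.0, no filter, thinned fibroblast libraries, a replicate block and leaving out each library.

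The members, lists and naming rule were chosen with earlier results of these data known. Named were the 6 nearest profiles, the 3 miRNAs next above and below each arm in fibroblast level, up to 4 called members of each list with the highest fibroblast level, the 3 hairpins next above and below miR-31a in 5p share, and miR-873-3p, miR-143-3p and miR-21-5p. From the blood, epithelial and neural lists this rule also took miR-451-5p (log2 2.82), miR-141-5p (3.88), miR-9a-5p (4.59) and miR-137-5p (1.70). Calls of miR-451-5p and miR-137-5p were lost in some alternatives. Of tested entries, 1 of 10 blood, 3 of 11 epithelial, 2 of 10 neural and 1 of 2 endothelial were higher. In these lists 0 were lower. Over all tested miRNAs 11.3% were higher and 18.6% lower. miR-31b, miR-10a-3p and miR-24-1-5p were named after their values were seen. Sequences are from RefSeq (GRCr8), where all 3 miR-31 entries matched.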

Additional observations from a re-analysis of the deposited data

How the results depend on the processing

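miR-31a-5p kept a negative log2 fold change under every alternative run. It moved by more than the spread between libraries from -5.45 to -3.09 with miR-873-3p left out of the library size and to -6.95 with library sizes taken from unassigned reads, and ranged from -7.41 to -4.95 when libraries were left out in turn. The fold of miR-31a-3p turned to 1.29 with miR-873-3p left out, and ranged from -1.76 to -0.86 without each exosome library. It failed the count filter with thinned fibroblast libraries and without any 1 fibroblast library. The 5p share ranged from 70.1% to 88.9% in exosomes and from 99.05% to 99.65% in fibroblasts when libraries were left out, and with miR-31b added to the 3p arm the fibroblast share moved to 94.7%.

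In counts of calls, lower miRNAs numbered 36 with miR-873-3p left out of the library size and 237 with library sizes from other reads, and 86 to 140 without single libraries. Higher miRNAs numbered 378 and 31 in the same settings, 43 with total counts and 46 to 78 without single libraries. Fibroblast and mesenchymal entries lower numbered 11 with miR-873-3p left out and 12 to 23 without single libraries. Muscle entries called numbered 1 with total counts, 7 with miR-873-3p left out, 1 with thinning and 1 to 3 without single libraries; metastasis-associated entries called numbered 12 with miR-873-3p left out and 5 to 9 without single libraries. The number of tested miRNAs changed too, from 698 to 327 with thinning. It was 402, 359 and 414 without fibroblast library 1, 2 or 4. Without exosome library 1, 2 or the unnumbered one it was 720, 724 and 725. The counts of calls are therefore not over the same miRNAs, and a fall can include miRNAs that were no longer tested. Other causes of these moves were not tested.

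Both groups carry the numbers 1 and 2, but nothing in the labels says that a number marks a shared culture, and the differences between libraries 1 and 2 had r = -0.06 between groups over 698 miRNAs. A replicate block on those 4 libraries gave log2 fold changes of -6.75 for miR-31a-5p and -1.24 for miR-31a-3p, with 142 miRNAs lower and 100 higher; miR-31a-5p then ranked 28 of 724 from the lowest, and miR-22-3p did not pass (edgeR adjusted p = 0.058).

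For 34 other named miRNAs, 376 of 446 values kept their direction and side of the threshold. Calls were lost in 44, gained in 18, and 8 changed sign, all among scarce miRNAs near miR-31a-3p in level. These were let-7c-1-3p (1.79) and miR-19a-3p (0.038) with miR-873-3p left out, miR-449c-3p (-0.42), miR-192-3p (-0.17) and miR-3559-3p (-0.66) with library sizes from other reads, and miR-3559-3p also with total counts (-0.42), with the block (-0.21) and without exosome library 2 (range -0.98 to 0.76 without single libraries). miR-30e-5p and miR-151-3p lost their call without exosome library 1 or 2 and with miR-873-3p left out. The fits on reads behind the deposited normalized table were not run, since whole reads could not be recovered from it for 2 fibroblast libraries. With 5 exosome reads of miR-31a-3p in all, depth limits every statement on that arm in exosomes.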
